A study of Mus musculus with 16 samples.

Results

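Interferon-stimulated genes (ISGs) are the genes that cells switch on in response to interferons, and the reads over the 3′-UTRs of 44 of them were followed here in bone marrow-derived macrophages (BMDMs) of the mouse, in sequencing of RNA immunoprecipitated with CPEB4 (RIP-seq). The 44 genes were taken by symbol from a list, no threshold on a measured value was applied, and all 44 were among the 14925 genes of the data. CPEB4 is a protein that binds cytoplasmic polyadenylation elements (CPEs), U-rich motifs in the 3′-UTR of an mRNA. BMDMs, grown from the marrow of adult mice with L-cell medium as the source of M-CSF, came from 1 wild-type (WT) and 1 CPEB4 knockout (KO) culture on a mixed C57BL/6J and 129 background, and the KO is of the whole animal and not of macrophages alone. Each culture was left untreated or was given 10 ng/ml lipopolysaccharide (LPS), a cell wall component of Gram-negative bacteria, for 9 h. For each genotype and treatment, RNA that came down with an anti-CPEB4 antibody (RIP) and RNA of the lysate (Input) were sequenced after formaldehyde crosslinking, and the Input RNA had been depleted of ribosomal RNA.

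Each combination of genotype, treatment and assay has 1 library, 8 in all, and the 16 sequenced samples are lanes of these, so that the differences given here lack replicates and carry no p-value. A level is given in CPM, the reads over a 3′-UTR per 1000000 3′-UTR reads of its library. A ratio is the log2 ratio of 2 libraries after 1 read was added to each, and the fold is the same value on the linear scale. The range in parentheses after a ratio is its 95% counting interval, which covers counting error alone and neither the spread between cultures nor that between immunoprecipitations. A gene was counted as higher or lower at 2-fold or more when it had at least 20 reads over the libraries compared. Each gene is represented by its 3′-UTR region with the most reads.

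Macrophages that meet LPS signal through TLR4, and the TRIF arm of this pathway leads to interferon-β. The secreted interferon acts on the receptor chains IFNAR1 and IFNAR2, whose kinases JAK1 and TYK2 pass the signal on to transcription factors that bind the interferon-stimulated response element (ISRE) in the promoters of ISGs. The products of ISGs detect foreign nucleic acids, degrade or edit RNA, halt translation, attack the vacuoles of intracellular pathogens, and conjugate the ubiquitin-like protein ISG15.

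The ISRE core was looked for in the promoters of the 44 genes because it is the element through which ISGs are known to be induced. The core, 2 GAAA repeats with any 2 bases between them, was searched on both strands of RefSeq promoter windows of GRCm38.p6, each 250 bases before to 50 after the start of transcription. Of the 44 genes, 34 had such a window, and 17 of these (50%) held the core. Over all genes with a window the share was 3.99% (1079 of 27025). Windows were not used here for Dhx58, Zbp1, Oas2, Mx1, Mx2, Iigp1, Usp18, Parp9, Parp14 and Rtp4. The 17 genes had 26 matches, some of them overlapping each other, and 20 matches ended before the start of transcription. The sites below are printed with 10 bases on each side of the core, which is in capitals, on the strand that reads GAAA. They are shown for Isg15 and for 7 of the genes whose reads are described next, to let the reader compare the core and its flanks. The printed sites are of antiviral effectors, GTPases and Isg15, and all end before the start of transcription. No site of a sensor or of the remaining genes is printed. The matches of the sensors Ddx58 and Ifih1 ended 11 and 41 bases after the start.
Isg15, chr4:156200871-156200900, minus strand: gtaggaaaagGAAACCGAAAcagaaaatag
Ifit1, chr19:34640794-34640823, minus strand: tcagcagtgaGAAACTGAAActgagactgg
Rsad2, chr12:26456553-26456582, plus strand: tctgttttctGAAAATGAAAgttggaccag
Oas3, chr5:120777715-120777744, minus strand: gcagggaggaGAAAACGAAAgtgaagggag
Gbp2, chr3:142620594-142620623, minus strand: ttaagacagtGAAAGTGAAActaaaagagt
Gbp5, chr3:142496759-142496788, minus strand: tctctaaactGAAATTGAAActacacaagt
Gbp7, chr3:142530273-142530302, minus strand: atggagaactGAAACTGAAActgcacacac
Igtp, chr11:58199512-58199541, plus strand: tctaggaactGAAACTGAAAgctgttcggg
The 2 bases between the GAAA repeats differed among these genes, and Ifit1, Gbp7 and Igtp shared CT there. The core was found in 6 of 7 windows of interferon-inducible GTPases, in both windows of sensors, in 5 of 11 windows of antiviral effectors, in 3 of 6 windows of the ISG15 and ubiquitin group, and in 1 of 8 windows of the remaining genes. A match is a description of the letters in the window and does not show that a factor bound there.

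The ISGs were higher with LPS in both genotypes. In the WT Input, 41 of the 44 genes were at least 2-fold higher with LPS and none was 2-fold lower, where 15% of all genes were higher and 15.3% were lower. In the KO Input, 39 of the 43 genes with enough reads were higher and none was lower, beside 13.7% and 19.6% of all genes. Trim25, Bst2 and Parp14 were under 2-fold in both genotypes, and Adar was in KO. The median log2 ratio of LPS over untreated was 2.85 in WT and 2.54 in KO, and over all genes it was -0.06 and -0.16. With the genes at 0 untreated reads put at their lower bound, which is explained below, the medians of the ISGs were 2.50 and 2.54. Together the 44 genes took 0.203% (95% Wilson interval 0.194% to 0.213%) of the 3′-UTR reads of the untreated WT Input and 0.873% (0.859% to 0.886%) with LPS. In the KO Inputs they took 0.217% (0.209% to 0.225%) and 0.859% (0.844% to 0.874%). As these are bulk samples, more cells that express a gene and more of its RNA per cell cannot be told apart.

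Many of these genes had few reads without LPS, and a gene that reached 20 reads only through the LPS library had to differ between the libraries. In the untreated WT Input 23 of the 44 genes had under 10 reads and 3 had 0, and in KO the numbers were 18 and 4. Among the 19 genes with at least 20 untreated reads in WT, 16 were at least 2-fold higher with LPS, where 7.58% of all genes under the same rule were, and the median ratio of these ISGs was 1.82. In KO 17 of 21 such genes were higher, beside 8.26% of all genes, with a median of 1.74. Where an untreated library had 0 reads, the fold is given as a lower bound against a floor of 3 reads per library.

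**Figure D1:**
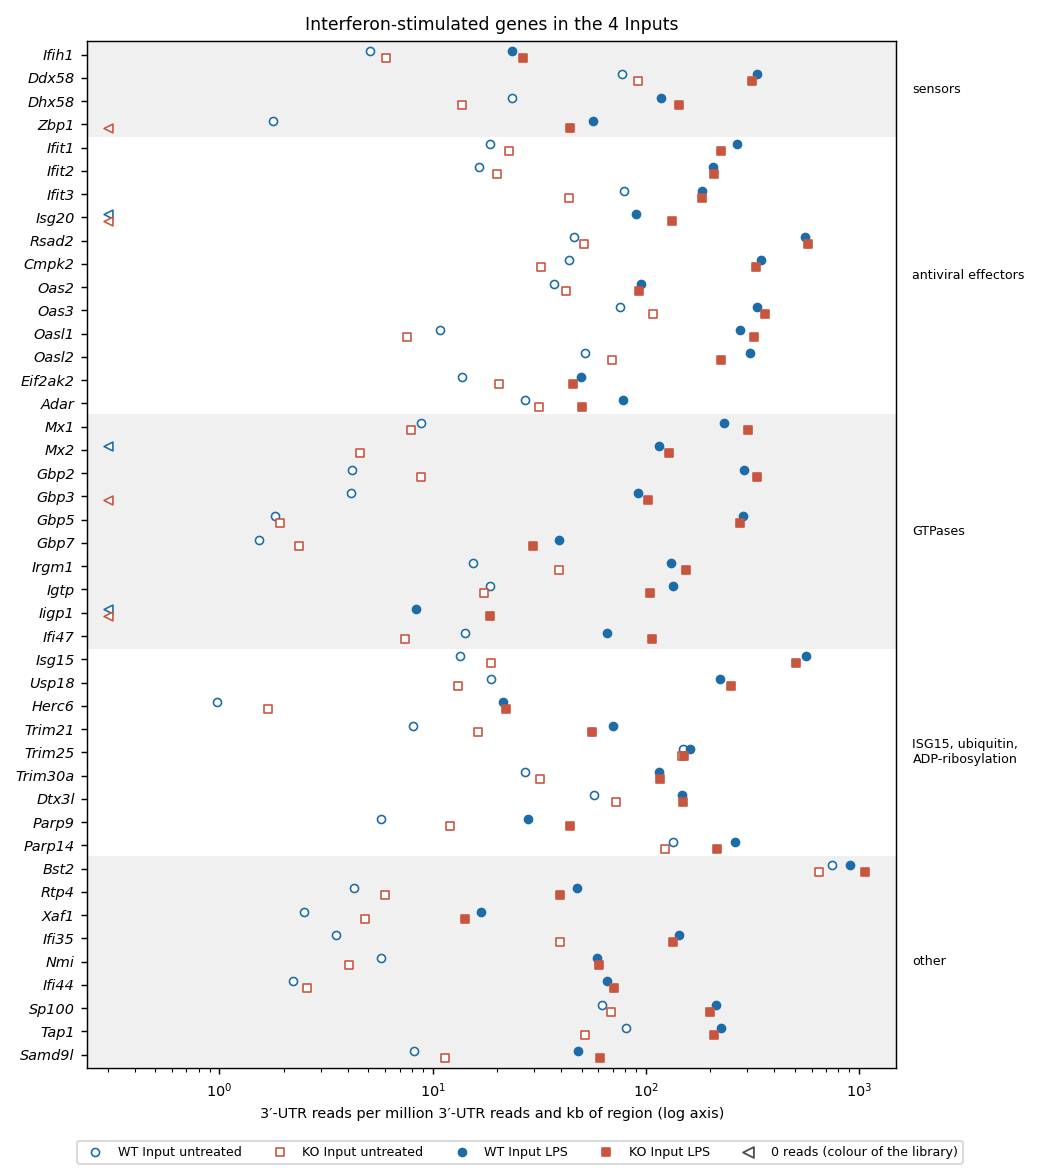
Levels of the 44 ISGs in the 4 Inputs, as CPM per kb of region on a log axis, with blue circles for WT, red squares for KO, open symbols for untreated and filled symbols for LPS libraries (1 library each), and arrowheads at the left edge for 0 reads. The filled symbols lie to the right of the open ones for every gene except Trim25, whose 4 symbols lie together, and the WT and KO symbols of a treatment lie close to each other for most genes.

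All 4 sensors of foreign nucleic acid were at least 2-fold higher with LPS in both genotypes. The shares over all genes were 15% in WT and 13.7% in KO. Ifih1, Dhx58 and Zbp1 had under 20 untreated reads and reached the read minimum only through the LPS library, which partly set this count in advance. The median ratios of the sensors were 2.10 in WT and 2.60 in KO. Ddx58 (chr4:40204849-40205809, minus strand) encodes RIG-I, which detects viral RNA with a free triphosphate end, and its level went from 74.3 CPM to 319.9 CPM in WT and from 88.2 CPM to 303 CPM in KO. This was 4.25-fold in WT, a log2 ratio of 2.09 (1.73 to 2.45), and 3.41-fold in KO, with 1.77 (1.48 to 2.06). Ifih1 (chr2:62595798-62597908, minus strand), the sensor of long double-stranded RNA also called MDA5, had 10.8 CPM and 49.5 CPM in WT and 12.8 CPM and 55.9 CPM in KO, and its ratios were 2.08 (1.18 to 2.98) and 2.06 (1.33 to 2.79). For both helicases the intervals of the genotypes overlapped. Zbp1 (chr2:173206612-173207216, minus strand), which recognises nucleic acids in the Z form and can start cell death, had 1 read in the untreated WT Input and 65 with LPS, and 0 and 40 in KO, at least 11.8-fold higher in the latter. Dhx58, the helicase LGP2 that tunes signalling by RIG-I and MDA5, had ratios of 2.12 in WT and 3.14 in KO. These rest on 6 untreated reads in WT and 5 in KO.

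Antiviral effectors that act on RNA, nucleotides or translation formed the role group with the most reads, and Rsad2 led it. All 12 genes were at least 2-fold higher with LPS in WT and 11 were in KO, with Adar as the exception. The shares over all genes were 15% and 13.7%. Isg20 and Oasl1 reached the read minimum only through the LPS library. The medians of the group were 2.75 and 2.64, or 2.50 and 2.64 with Isg20 at its lower bound. Rsad2 (chr12:26442753-26445570, minus strand) encodes viperin, a radical SAM enzyme that turns CTP into a chain terminator of viral polymerases, and it stood at 130.2 CPM and 1574 CPM in the WT Inputs and at 144 CPM and 1628 CPM in the KO Inputs. It was 12.0-fold higher with LPS in WT, a ratio of 3.58 (3.32 to 3.85), and 11.2-fold in KO, with 3.49 (3.28 to 3.70). Cmpk2 (chr12:26478130-26479835, plus strand), a mitochondrial nucleotide kinase encoded next to Rsad2, went from 74.3 CPM to 592 CPM in WT and from 55.1 CPM to 559 CPM in KO, ratios of 2.98 and 3.33. For this pair of neighbours the WT and KO libraries of a treatment lay far closer together than the untreated and LPS libraries.

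The IFIT proteins bind viral RNA through tetratricopeptide repeats. Ifit2 (chr19:34574475-34576419, plus strand) had 32.3 CPM untreated and 404 CPM with LPS in WT, and 39.2 CPM and 405 CPM in KO, so that the LPS libraries differed by less than their counting error. Its LPS ratios were 3.60 and 3.34, close to those of its neighbour Ifit1 at 3.77 and 3.26. Ifit3 (chr19:34588268-34588731, plus strand) reached 84.9 CPM in WT and 85.2 CPM in KO with LPS, from untreated levels of 36.6 CPM and 20.4 CPM. Its LPS ratio was therefore the smaller in WT, 1.18 (0.65 to 1.71) against 2.02 (1.43 to 2.61). Reads of Ifit3 may be shared with Ifit3b, since 463 of its 464 bases align to that gene at 94.6% identity.

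The oligoadenylate synthetases make the second messenger that activates RNase L, which cleaves RNA. Oas3 (chr5:120753098-120754363, minus strand) had 95.8 CPM and 424 CPM in the WT Inputs and 137 CPM and 459 CPM in the KO Inputs, ratios of 2.13 and 1.73. Oas2 (chr5:120730334-120731958, minus strand) had 60.3 CPM and 154 CPM in WT and 68.6 CPM and 151 CPM in KO, ratios of 1.33 and 1.13. Oasl2 (chr5:114911368-114912234, plus strand), a relative of these enzymes with ubiquitin-like domains, went from 45.2 CPM to 267 CPM in WT and from 60.3 CPM to 196 CPM in KO, ratios of 2.53 (2.08 to 2.98) and 1.69 (1.33 to 2.04). Oasl1, of the same kind, had 5 reads in each untreated Input, and with LPS 261 in WT and 241 in KO. Its ratio was the largest of the group in WT, at 4.42, and was 5.15 in KO, and both rest on these few untreated reads. In this family the untreated level was the higher in KO for Oas2, Oas3 and Oasl2, none of them by 2-fold. For Oasl1 the untreated reads were too few to compare.

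Eif2ak2 and Adar act on double-stranded RNA. Eif2ak2 (chr17:78852564-78855138, minus strand) encodes the kinase PKR, which halts translation by phosphorylating eIF2α, and had 35.5 CPM and 129 CPM in the WT Inputs and 52.8 CPM and 118 CPM in the KO Inputs. Its ratios were 1.82 and 1.15. Adar (chr3:89751176-89753446, plus strand), which converts adenosine to inosine in double-stranded RNA, went from 61.4 CPM to 178 CPM in WT and from 71.6 CPM to 114 CPM in KO, 2.86-fold and 1.58-fold. Isg20 (chr7:78920163-78920362, plus strand), an exonuclease that degrades viral RNA, had 0 reads in both untreated Inputs, 34 with LPS in WT and 40 in KO. It was at least 5.55-fold higher with LPS in WT and at least 11.8-fold in KO, and a level under the floor of 3 reads was not detectable without LPS. Of the Adar region, 1014 bases overlap an exon of Chrnb2 on the opposite strand, and since the strand setting of the libraries is not given in the sources used here, reads of these genes cannot be told apart.

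The interferon-inducible GTPases had the largest median LPS ratio of the 5 role groups. All 10 were at least 2-fold higher with LPS in both genotypes, beside 15% of all genes in WT and 13.7% in KO. The medians were 4.15 in WT and 4.64 in KO. With the genes at 0 untreated reads at their lower bound they were 3.72 and 3.98. In the untreated WT Input Igtp had 21 reads, Mx1 11 and Irgm1 8, and the other GTPases had at most 5. In the untreated KO Input Irgm1 had 29, Igtp 28, Mx1 14 and Gbp7 11, and the others at most 6. Most of these genes thus reached the read minimum only through the LPS library, which partly set the count of 10 in advance. The rank of the group was not tested with a minimum on untreated reads. The guanylate-binding proteins (GBPs) coat vacuoles and bacteria in the cytosol. Gbp5 (chr3:142521163-142522344, plus strand), which also promotes inflammasome activation, had 2 reads in the untreated WT Input and 642 with LPS, and 3 and 493 in KO, levels of 338 CPM and 328 CPM in the LPS libraries. Its ratio was the largest of the 44 genes in both genotypes, at 6.71 (5.08 to 8.35) and 6.77 (5.35 to 8.19), and both untreated values rest on at most 3 reads. Gbp2 (chr3:142637494-142638008, plus strand) had 2.15 CPM and 149 CPM in WT and 4.53 CPM and 172 CPM in KO, ratios of 5.53 and 5.03. Gbp7 (chr3:142546575-142550083, plus strand) had 5.38 CPM and 137 CPM in WT and 8.30 CPM and 104 CPM in KO, ratios of 4.41 and 3.53. Gbp3, at 0 reads in the untreated KO Input and 80 with LPS, was at least 23.5-fold higher there, and its ratio in WT was 3.89. These 4 GBP genes lie within 116846 bases of chromosome 3.

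The dynamin-like Mx GTPases, a family whose active members block viral nucleocapsids, also had large LPS ratios. Whether the alleles of these mice encode active proteins cannot be read from the counts. Mx1 (chr16:97447035-97448372, minus strand) went from 11.8 CPM to 313 CPM in the WT Inputs and from 10.6 CPM to 403 CPM in the KO Inputs, 24.3-fold and 35.7-fold. Mx2 (chr16:97560570-97560899, plus strand) had 0 and 72 reads in the WT Inputs, at least 11.8-fold higher with LPS, and 2 and 64 reads in the KO Inputs, a ratio of 4.26 (2.59 to 5.93). The immunity-related GTPases act on the vacuoles of intracellular parasites and bacteria. Among them Igtp (chr11:58206366-58207575, plus strand) had 22.6 CPM and 162 CPM in WT and 21.1 CPM and 126 CPM in KO, ratios of 2.78 and 2.54. Irgm1 (chr11:48865245-48865800, minus strand), which regulates the other members of the family, had 8.61 CPM and 73.3 CPM in WT and 21.9 CPM and 85.9 CPM in KO, ratios of 2.93 and 1.94. Ifi47 (chr11:49096671-49096974, plus strand) had 4 and 38 reads in WT and 3 and 49 reads in KO, ratios of 1.93 (0.59 to 3.28) and 3.46 (1.99 to 4.93), and these intervals overlapped. Iigp1 had 0 reads in both untreated Inputs and was at least 4.08-fold higher with LPS in WT and at least 12.9-fold in KO.

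**Figure D2:**
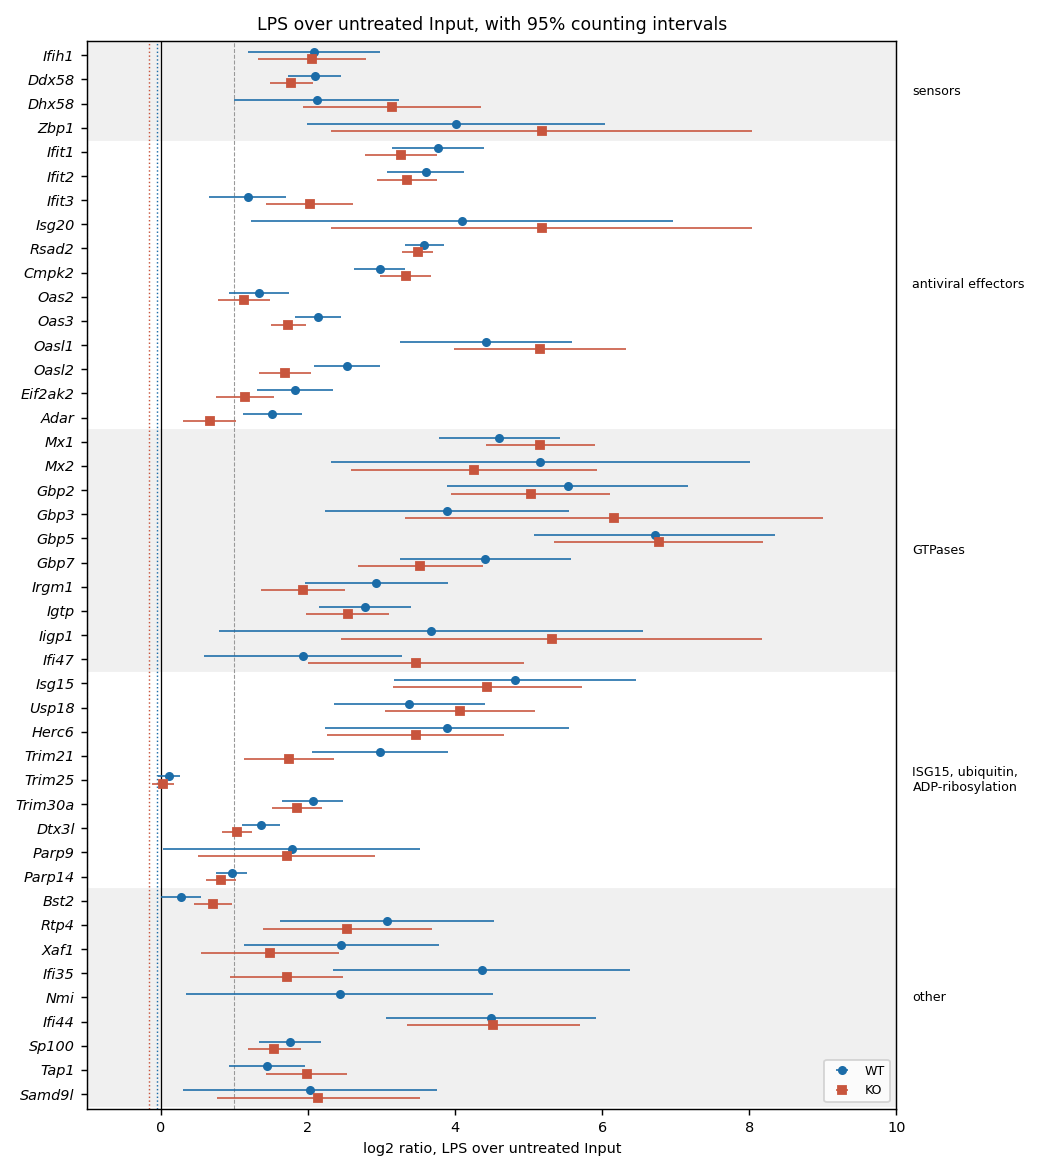
Log2 ratio of LPS over untreated Input for the ISGs, with 95% counting intervals, in WT (blue circles) and KO (red squares), 1 library per group. Dotted lines are the medians over all genes with at least 20 reads, -0.06 in WT and -0.16 in KO, and the dashed line is 2-fold. All plotted ratios lie to the right of 0, Gbp5 the farthest, and the intervals of Trim25 alone hold 0 in both genotypes.

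Genes for ISG15, its conjugation, ubiquitin ligases and ADP-ribosylation held both large and small ratios. Of these 9 genes, 7 were at least 2-fold higher with LPS in WT and 7 in KO, beside 15% and 13.7% of all genes. The medians of the group were 2.06 and 1.74. Isg15 itself had the largest ratios, 4.82 in WT and 4.44 in KO. Usp18, the protease that removes ISG15, had 3.38 and 4.07, and Herc6, an ISG15 ligase, had 3.89 and 3.46. These values rest on few reads, since the untreated WT and KO Inputs held 2 and 4 of Isg15, 7 and 7 of Usp18, and 2 and 5 of Herc6. Trim25 (chr11:89016722-89020293, plus strand), a ubiquitin ligase that acts on RIG-I, stood at 537 CPM and 579 CPM in the WT Inputs and at 531 CPM and 542 CPM in the KO Inputs. Its ratios of 0.11 (-0.05 to 0.26) and 0.03 (-0.12 to 0.17) were the smallest of the 44 genes and held 0, so that no change with LPS beyond counting error was seen. Dtx3l (chr16:35926511-35929298, minus strand), a ubiquitin ligase, had 159 CPM and 412 CPM in WT and 203 CPM and 416 CPM in KO, ratios of 1.36 and 1.03. Its partner and neighbour Parp9 (chr16:35972230-35972605, plus strand) had 2 and 20 reads in the WT Inputs and 6 and 25 in the KO Inputs, ratios of 1.78 (0.03 to 3.52) and 1.71 (0.51 to 2.92). Parp14 (chr16:35832874-35834645, minus strand), a mono-ADP-ribosyltransferase of the same locus, had 237 CPM and 463 CPM in WT and 217 CPM and 382 CPM in KO, just under 2-fold with ratios of 0.96 and 0.81. Trim21 (chr7:102557922-102559121, minus strand), the cytosolic antibody receptor and ubiquitin ligase, went from 9.69 CPM to 84.3 CPM in WT and from 19.6 CPM to 67.2 CPM in KO, ratios of 2.98 and 1.74.

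The 9 remaining genes of the list included the gene with the highest level per length in all 4 Inputs. This was Bst2 (chr8:71534264-71534480, minus strand), which encodes tetherin, a protein that holds budding virions on the cell, at 749 and 906 CPM per kb in the WT Inputs and 653 and 1070.5 in the KO Inputs. Its levels in CPM were 163 and 197 in WT and 142 and 232 in KO, ratios of 0.27 and 0.71 (0.45 to 0.96), both under 2-fold, and the interval in WT held 0. Sp100 (chr1:85709119-85709998, plus strand), a protein of PML nuclear bodies, had 54.9 CPM and 189 CPM in WT and 60.3 CPM and 177 CPM in KO, ratios of 1.76 and 1.54. Tap1 (chr17:34196775-34197225, plus strand), which carries peptides to MHC class I molecules, had 36.6 CPM and 102 CPM in WT and 23.4 CPM and 94.5 CPM in KO, ratios of 1.44 and 1.98. Ifi35 (chr11:101458393-101458698, plus strand), an inducible leucine zipper protein, had 1 read untreated and 83 with LPS in WT, and 16 and 62 in KO. Its partner Nmi had a ratio of 2.43 in WT, on 1 untreated read, and too few reads in KO. The other 4 genes, Rtp4, Xaf1, Ifi44 and Samd9l, had ratios from 2.03 (Samd9l) to 4.49 (Ifi44) in WT and from 1.48 (Xaf1) to 4.52 (Ifi44) in KO. Their untreated reads were few too, such as 3 in WT and 5 in KO for Ifi44 and 2 and 4 for Samd9l.

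Few ISGs differed by 2-fold between the WT and KO Inputs. Without LPS, 1 of the 23 ISGs with enough reads was at least 2-fold higher in the KO Input and none was lower, where 2.75% of all genes were higher and 1.27% were lower. That gene was Irgm1, with 8 reads in WT and 29 in KO, a ratio of 1.22 (0.15 to 2.30). With LPS, 1 of 44 was higher in KO and none was lower, beside 1.6% and 2% of all genes, and this was Iigp1, with 25 and 44 reads and a ratio of 1.13 (0.43 to 1.82). The median ratio of KO over WT over the ISGs was 0.20 without LPS and 0.01 with LPS, beside 0.02 and -0.04 over all genes. Among the genes with the most reads, the KO over WT ratio with LPS was 0.05 (-0.03 to 0.13) for Rsad2, -0.08 (-0.21 to 0.05) for Cmpk2, 0.01 (-0.15 to 0.16) for Ifit2 and -0.10 (-0.23 to 0.03) for Trim25. None of these 4 intervals reached 2-fold. Across the 43 ISGs with enough reads in both genotypes, the LPS ratios in WT and KO had Pearson's r = 0.85 and Spearman's rho = 0.82, beside r = 0.90 and rho = 0.82 over 6639 genes of the data. These are descriptions across genes, which are not independent of each other.

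The difference of the LPS ratios, KO minus WT, had a counting interval below 0 in 7 of 43 ISGs and above 0 in 2, where 7.7% and 5.99% of all genes were so placed. The smaller induction in KO was seen in Ifi35, Trim21, Adar, Oasl2, Eif2ak2, Oas3 and Dtx3l, and the larger one in Ifit3 and Bst2. For Ifi35 the difference of -2.65 (-4.82 to -0.49) rests on 1 read in the untreated WT Input, while the LPS libraries differed by -0.08 in log2. The difference for Trim21 was -1.24 (-2.35 to -0.14), and its WT value rests on 9 untreated reads. Adar differed by -0.86 (-1.40 to -0.32), with 57 and 338 reads in the WT Inputs and 95 and 171 in the KO Inputs, and its KO over WT ratio with LPS was the lowest of these 9 genes, at -0.64 (-0.91 to -0.38). For Oasl2 the difference was -0.84 (-1.41 to -0.27), for Eif2ak2 -0.67 (-1.33 to -0.02) and for Ifit3 0.84 (0.05 to 1.63). In Ifit3 and Bst2 the untreated level was the lower in KO, and in the other 7 it was the higher.

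In the WT RIPs the ISGs lay 2-fold above or below their Input no more often than all genes did. In the WT RIP without LPS, 6 of 26 ISGs were at least 2-fold higher than in the Input and 5 were lower, where 25.5% and 21.1% of all genes were. With LPS 5 of 44 were higher and 7 lower, beside 23.8% and 26.3% of all genes, and the median RIP over Input ratio was -0.02. In the KO RIP CPEB4 should be absent, and this RIP is taken here as the background of the immunoprecipitation. There 3 of 23 ISGs were higher without LPS and none was lower, beside 14.8% and 12.5% of all genes. With LPS 7 of 44 were higher and 2 lower in the KO RIP, beside 14.3% and 12.2% of all genes, and the median was 0.38, against -0.06 over all genes. The 44 genes took 0.879% of the 3′-UTR reads of the WT RIP with LPS and 1.26% of those of the KO RIP with LPS (Wilson intervals 0.868% to 0.891% and 1.24% to 1.29%). Without LPS the shares were 0.189% and 0.259%.

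Single ISGs lay on both sides of their Input. The highest RIP over Input ratio with LPS in WT was that of Parp9, with 10.5 CPM in the Input and 36.1 CPM in the RIP, a ratio of 1.72 (1.04 to 2.41), and in KO it had 16.6 CPM and 33.3 CPM, a ratio of 0.99 (0.23 to 1.75). Ifit2, the highest in KO, had 405 CPM in the KO Input and 1322 CPM in the KO RIP, a ratio of 1.70 (1.56 to 1.85), and in WT it had 404 CPM and 881 CPM, a ratio of 1.12 (1.01 to 1.24). The ratio of Ifit2 was thus the higher in KO on the 3′-UTR scaling, and this order turns on the authors' library totals, where all RIP over Input ratios with LPS shift by 0.51 in WT and by -0.68 in KO. At the other end Ifi35 had ratios of -2.54 (-3.26 to -1.82) in WT and -1.38 (-2.22 to -0.55) in KO, and Oas3, with 424 CPM in the WT Input and 80.6 CPM in the WT RIP, had -2.39 (-2.61 to -2.17) in WT and -0.46 (-0.66 to -0.26) in KO. Isg20 was the lowest in KO, at -1.76 (-2.92 to -0.61), and rests on 6 reads in that RIP.

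Most ISGs took a smaller share of the 3′-UTR reads in the WT RIP than in the KO RIP. Without LPS, none of 25 ISGs was at least 2-fold higher in the WT RIP and 6 were lower, beside 9.85% and 11% of all genes. With LPS 1 of 44 was higher and 11 were lower, beside 10.2% and 13.8% of all genes. The median WT over KO ratio was -0.58 without LPS and -0.56 with LPS, against -0.03 and 0.05 over all genes, and 36 of the 44 ISGs lay below the median of all genes with LPS. With LPS the counting interval lay below 0 for 29 genes and above 0 for 2, Isg20 and Tap1. The share of all genes with such intervals is not given here, so these counts do not show a trait of the ISGs. The quartiles of this ratio over all genes were -0.59 and 0.56. The direction depends on the scaling of the libraries. On the authors' library totals, of which 3′-UTR reads were 27.5% and 32.1% in the KO RIPs and 49.3% and 70.7% in the WT RIPs, every gene's ratio shifts up by 0.84 without LPS and by 1.14 with LPS, and the medians of the ISGs become 0.27 and 0.58, with 0 genes 2-fold lower in either treatment. The counting interval then lies below 0 for 3 ISGs without LPS, Oas2, Oas3 and Ifit3, and for 3 with LPS, Oas3, Mx1 and Bst2, and above 0 for 7 and 29. These counts too have no share of all genes beside them. The place of the ISGs relative to all genes does not move with this shift. The WT over KO ratios given next are on the 3′-UTR scaling unless the library totals are named. The 10 macrophage marker genes used below had a median of -0.83 with LPS, so that a low WT over KO ratio was not seen in ISGs alone.

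**Figure D3:**
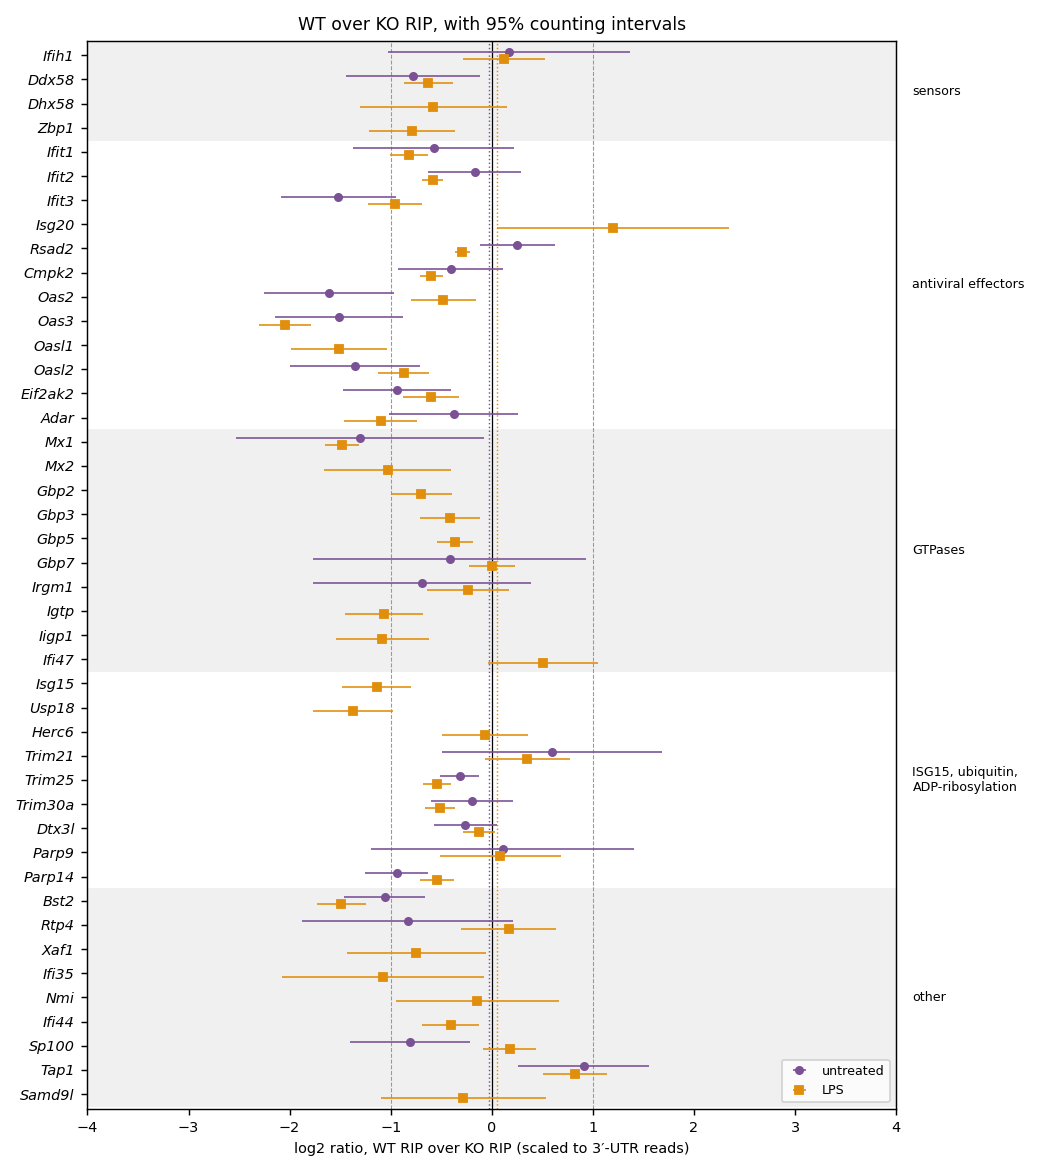
Log2 ratio of WT over KO RIP for the ISGs, scaled to 3′-UTR reads, with 95% counting intervals, untreated (purple circles) and with LPS (orange squares), 1 library per group. Dotted lines are the medians of all genes and dashed lines 2-fold. With LPS 36 of 44 ISGs lie below the median of all genes, Oas3 the lowest and Isg20 the highest.

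With LPS, antiviral effectors held the lowest and the highest of these ratios. Oas3 had 26.4 CPM and 80.6 CPM in the untreated and LPS WT RIPs and 74.8 CPM and 333 CPM in the KO RIPs, WT over KO ratios of -1.51 (-2.14 to -0.88) and -2.04 (-2.30 to -1.78). For Oas2 the levels were 24.6 CPM and 93.5 CPM in WT and 74.8 CPM and 129.7 CPM in KO, with ratios of -1.61 (-2.25 to -0.97) and -0.48 (-0.80 to -0.16). Oasl2 had 27.0 CPM and 134 CPM in WT and 68.4 CPM and 244 CPM in KO, ratios of -1.35 and -0.87. On the 3′-UTR scaling these 3 genes were thus lower in the WT RIP in both treatments, beyond counting error. On the authors' library totals Oas3 kept this direction, at -0.67 and -0.90, while with LPS Oas2 turned to 0.66 and Oasl2 to 0.27. Rsad2 had 180.1 CPM and 1959 CPM in WT and 149.7 CPM and 2403 CPM in KO, and with ratios of 0.25 (-0.12 to 0.62) and -0.29 (-0.37 to -0.22) it differed far less. Cmpk2 had 65.4 CPM and 737 CPM in WT and 85.5 CPM and 1115 CPM in KO, ratios of -0.41 and -0.60. Ifit2 had 92.4 CPM and 881 CPM in WT and 103 CPM and 1322 CPM in KO, ratios of -0.17 (-0.63 to 0.29) and -0.59 (-0.69 to -0.48), so that the interval lay below 0 with LPS alone.

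Ifit3 and Adar were lower in the WT RIP as well on the 3′-UTR scaling, while with LPS they stood at 0.18 and 0.04 on the authors' library totals. For Ifit3 the WT RIPs had 33.0 CPM untreated and 111 CPM with LPS and the KO RIPs 94.1 CPM and 216 CPM, ratios of -1.52 (-2.08 to -0.95) and -0.96 (-1.23 to -0.69). For Adar they had 43.8 CPM and 57.4 CPM in WT and 55.6 CPM and 123 CPM in KO, ratios of -0.38 (-1.01 to 0.26) and -1.10 (-1.46 to -0.74). Eif2ak2 had 47.4 CPM and 119 CPM in WT and 89.8 CPM and 180.2 CPM in KO, ratios of -0.94 and -0.60. Isg20 was the one gene at least 2-fold higher in the WT RIP with LPS. It had 45 reads there and 6 in the KO RIP, 0 in both untreated RIPs, and a ratio of 1.20 (0.05 to 2.35), whose lower end is near 0.

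Among the 10 GTPases, Mx1, Iigp1, Igtp and Mx2 were at least 2-fold lower in the WT RIP with LPS and none was higher. Over all genes 13.8% were lower and 10.2% higher, and in so short a list these shares are not told apart. On the authors' library totals Mx1 stood at -0.34 and the other 3 between 0.06 (Iigp1) and 0.11 (Mx2). Mx1 had 7.20 CPM and 238 CPM in WT and 17.1 CPM and 663 CPM in KO, ratios of -1.30 (-2.53 to -0.08) and -1.48 (-1.65 to -1.32). Igtp had 50.6 CPM in WT and 106 CPM in KO with LPS, a ratio of -1.07 (-1.45 to -0.68), and 5 and 11 reads without LPS, too few for a call. Mx2 had 2 and 48 reads in WT and 1 and 34 in KO, a ratio with LPS of -1.03 (-1.66 to -0.40) once scaled to the larger totals of the WT libraries. The GBPs differed less. Gbp5 had 3 and 0 reads in the untreated WT and KO RIPs and 333 CPM and 428 CPM with LPS, a ratio of -0.37 (-0.54 to -0.19). Gbp2 had 2 and 0 reads untreated and 97.1 CPM and 157 CPM with LPS, a ratio of -0.70 with an interval below 0. Gbp7 had 9.00 CPM and 234 CPM in WT and 10.7 CPM and 233 CPM in KO, and its ratio with LPS was 0.00 (-0.23 to 0.23). The intervals of Gbp7, Irgm1 and Ifi47 held 0. Irgm1 had 12.6 CPM and 67.8 CPM in WT and 19.2 CPM and 79.2 CPM in KO, ratios of -0.70 and -0.24, and Ifi47 had 10 and 137 reads in WT and 1 and 33 in KO, a ratio with LPS of 0.51.

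In the remaining groups Bst2 and Tap1 stood at opposite ends. Bst2 had 80.4 CPM and 108 CPM in the WT RIPs and 167 CPM and 303 CPM in the KO RIPs, ratios of -1.06 (-1.46 to -0.66) and -1.49 (-1.73 to -1.24). Tap1 had 87.6 CPM and 196 CPM in WT and 44.9 CPM and 110.2 CPM in KO, and its ratios of 0.91 (0.26 to 1.55) and 0.82 (0.51 to 1.14) lay above 0 in both treatments, though under 2-fold. Sp100 had 40.8 CPM and 199 CPM in WT and 70.6 CPM and 176 CPM in KO, and its ratio was below 0 without LPS, at -0.81 (-1.40 to -0.22), while its interval held 0 with LPS, at 0.18 (-0.08 to 0.44). Ifi35 had 2 and 18 reads in WT and 3 and 13 in KO, a ratio with LPS of -1.08 (-2.07 to -0.08).

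The ubiquitin ligase and ADP-ribosylation genes had intervals that lay below 0 or held it with LPS. Trim25, whose levels in the Inputs lay together, had 489 CPM and 513 CPM in WT and 607 CPM and 746 CPM in KO, ratios of -0.32 (-0.51 to -0.12) and -0.54 (-0.68 to -0.41). Parp14 had 141 CPM and 348 CPM in WT and 269 CPM and 506 CPM in KO, ratios of -0.94 (-1.25 to -0.63) and -0.54 (-0.71 to -0.38). On this scaling both were lower in the WT RIP in both treatments, by less than 2-fold, whereas on the authors' library totals Trim25 turned to 0.53 and 0.60 and Parp14 with LPS to 0.60. Dtx3l had 192 CPM and 476 CPM in WT and 229 CPM and 519 CPM in KO, and its ratios of -0.26 and -0.13 had intervals that held 0. Trim21 had 42 and 7 reads in the untreated WT and KO RIPs and 83.1 CPM and 64.3 CPM with LPS, ratios of 0.59 and 0.35. Parp9 had 13.2 CPM and 36.1 CPM in WT and 10.7 CPM and 33.3 CPM in KO, ratios of 0.11 and 0.08, and the intervals of both genes held 0. Of the 9 genes of the ISG15 and ubiquitin group, Isg15 and Usp18 were the 2 that were at least 2-fold lower in the WT RIP with LPS. They stood at -1.14 and -1.37, and 13.8% of all genes were lower. Of the sensors, Ddx58 had 33.0 CPM and 156 CPM in WT and 55.6 CPM and 239.8 CPM in KO, ratios of -0.78 (-1.44 to -0.12) and -0.63 (-0.87 to -0.38), and 0.06 and 0.51 on the authors' library totals. Ifih1 had 16.2 CPM and 80.6 CPM in WT and 12.8 CPM and 73.4 CPM in KO, ratios of 0.17 and 0.12 whose intervals held 0. Zbp1 had 6 and 118 reads in WT and 0 and 71 in KO, a ratio with LPS of -0.79 (-1.21 to -0.37).

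The same ratio was then taken relative to the Inputs, since a transcript that differs between the Inputs should differ between the RIPs too. The input-corrected ratio subtracts the log2 difference between the WT and KO Inputs from the one between the WT and KO RIPs. Without LPS, 1 of 22 ISGs was at least 2-fold higher and 6 were lower, beside 14.5% and 14.2% of all genes. With LPS 2 of 44 were higher and 12 were lower, beside 11.3% and 17.8% of all genes, and the median was -0.51, against -0.05 over all genes. The lowest with LPS were Oas3 at -1.93 (-2.23 to -1.63), Adar at -1.74 (-2.19 to -1.30) and Igtp at -1.42 (-1.88 to -0.95), and the lowest without LPS were Ifit3 at -2.35 (-3.27 to -1.44), Mx1 at -1.49 (-3.14 to 0.15) and Oas2 at -1.43 (-2.23 to -0.63). The highest with LPS were Isg20 at 1.77 (0.45 to 3.08) and Ifi47 at 1.20 (0.39 to 2.01), followed by Parp9 at 0.73 (-0.29 to 1.75). Without LPS they were Trim21 at 1.51 (0.00 to 3.02), Irgm1 at 0.53 (-0.99 to 2.05) and Rsad2 at 0.39 (-0.10 to 0.89). Trim21 had 9 reads in the untreated WT Input, and with LPS its value was 0.03 (-0.52 to 0.58), so that its place at the top was not kept. On the authors' library totals every input-corrected ratio shifts up by 0.83 and 1.20, and the medians of the ISGs become 0.47 without LPS and 0.69 with LPS.

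**Figure D4:**
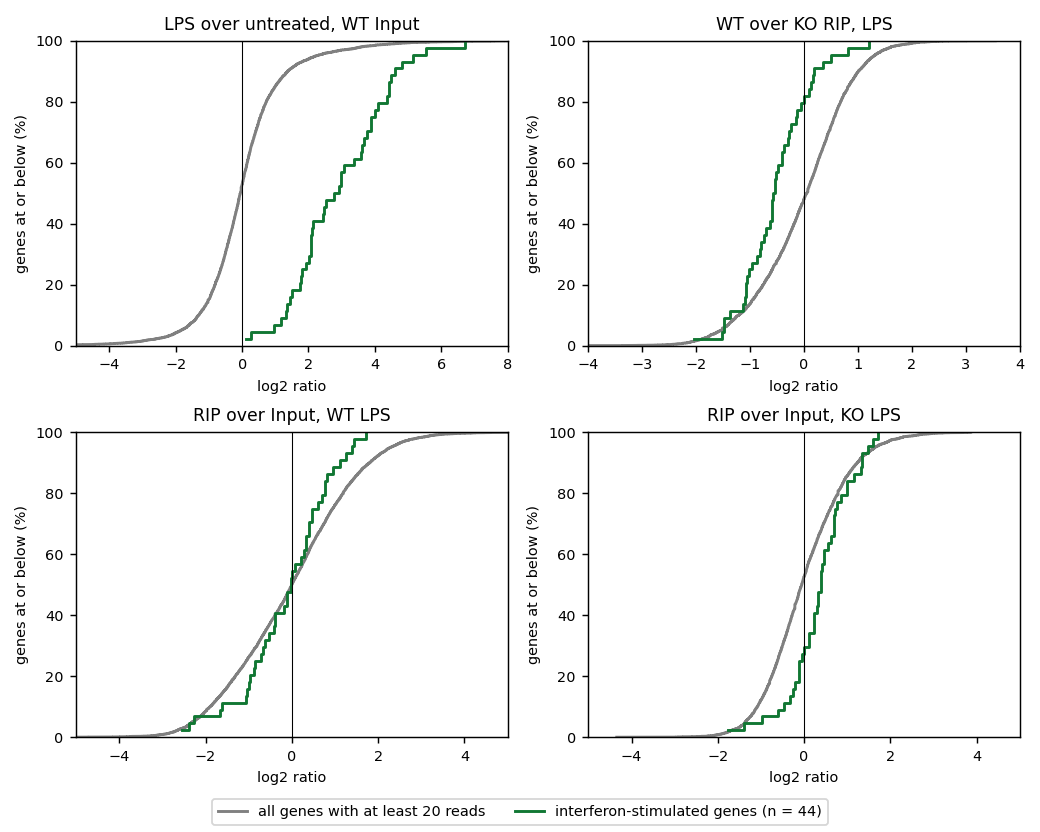
Cumulative share of genes at or below a log2 ratio (log2 scale on the horizontal axis, percent of genes on the vertical axis), for the 44 ISGs in green and all genes with at least 20 reads in grey, in 4 comparisons of single libraries scaled to 3′-UTR reads. The ISG line lies far to the right for LPS over untreated Input, to the left for WT over KO RIP with LPS, across the line of all genes for RIP over Input in WT, and to the right for RIP over Input in KO.

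CPEs were looked for in the 3′-UTRs because they are the elements that CPEB4 binds. The authors' files list a CPE prediction for 8 of the 44 ISGs (18.2%), where 31.8% of all genes have one. Among genes with at least 160 reads over the 8 libraries the shares were 19.5% of the ISGs and 42.6% of all genes. The 8 ISGs are Ifih1, Ifit2, Oasl2, Gbp2, Gbp7, Herc6, Dtx3l and Parp9. For each the motif nearest to the end of the region is shown in capitals within 30 bases of the GRCm38.p6 genome, on the strand of the transcript and with T for U.
Ifih1, chr2:62595827-62595856, minus strand: gttttgtcaataTTTTATttcaatagttat
Ifit2, chr19:34576238-34576267, plus strand: tatatatgaacaTTTTATtcagcaattaaa
Oasl2, chr5:114912128-114912157, plus strand: gactcgattgtTTTTAATgatttaggcctt
Gbp2, chr3:142637903-142637932, plus strand: cccaggtttcccTTTTATctccccactgtg
Gbp7, chr3:142550023-142550052, plus strand: tcatcagtaaagTTTTATctgggctaagaa
Herc6, chr6:57664806-57664835, plus strand: gtttttaaaataTTTTATaatgaaaactat
Dtx3l, chr16:35926619-35926648, minus strand: aagttctggatcTTTTATttcatccagtgt
Parp9, chr16:35972545-35972574, plus strand: ttttctatataaTTTTATaaagtgctttgg
TTTTAT was the motif in 7 of them and TTTTAAT in Oasl2. The motif ended 41 bases before the end of the region in Ifih1 and 43 bases in Gbp7 and Parp9, and 313 bases in Herc6. Of the motifs searched (TTTTAT, then TTTTAAT, then TTTTAAAT, then TTTTACT, then TTTTCAT, then TTTTAAGT and lastly TTTTGT, on the transcript strand), the regions of Gbp7 and Dtx3l held 12 each and that of Ifih1 held 11.

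The median WT over KO ratio was higher in ISGs with a CPE prediction than in the others, and this was so over all genes too. With LPS the median WT over KO RIP ratio was -0.10 in the 8 ISGs with a prediction and -0.59 in the 36 without. Over all genes the medians were 0.33 and -0.23. Within both classes the median of the ISGs was thus below that of all genes. The input-corrected medians with LPS were -0.25 and -0.66 in the ISGs and 0.30 and -0.36 over all genes. In WT over KO RIP with LPS the 8 ISGs ranged from -0.87 (Oasl2) to 0.12 (Ifih1), within the range of the 36 without a prediction, -2.04 (Oas3) to 1.20 (Isg20). None of the 8 was 2-fold higher in the WT RIP, beside 10.2% of all genes, and 8 genes are too few to tell these shares apart.

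At least 1 CPE motif was found in 32 of the 44 regions (72.7%), against 73.4% of all genes. Among genes with at least 160 reads the shares were 78.0% of the ISGs and 85.9% of all genes. The pentamer ATTTA of AU-rich elements, which destabilise many inflammatory mRNAs, was found at least once in 31 (70.5%) and more than once in 15 (34.1%), against 65.2% and 45.8% of all genes. With at least 160 reads it was found at least once in 73.2% of the ISGs and 77.5% of all genes, which turns the order of these shares, and more than once in 36.6% and 59.6%. The regions were 160 to 3572 bases long with a median of 1056.5, beside 1014 over all genes, and their median G + C content was 43.0%, beside 45.4%. Over all genes, recovery in the RIP went down with G + C content. Across the 44 ISGs the RIP over Input ratio with LPS and the G + C content had rho = -0.59 in WT and -0.43 in KO, and over all genes -0.77 and -0.65. Without LPS rho was -0.61 in WT but -0.09 in KO for the ISGs with enough reads, and -0.75 and -0.61 over all genes. For the WT over KO RIP ratio with LPS it was -0.37 in the ISGs and -0.40 over all genes. These are descriptions across genes of the same libraries, and the part of G + C content in the ratios of the ISGs was not tested.

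**Figure D5:**
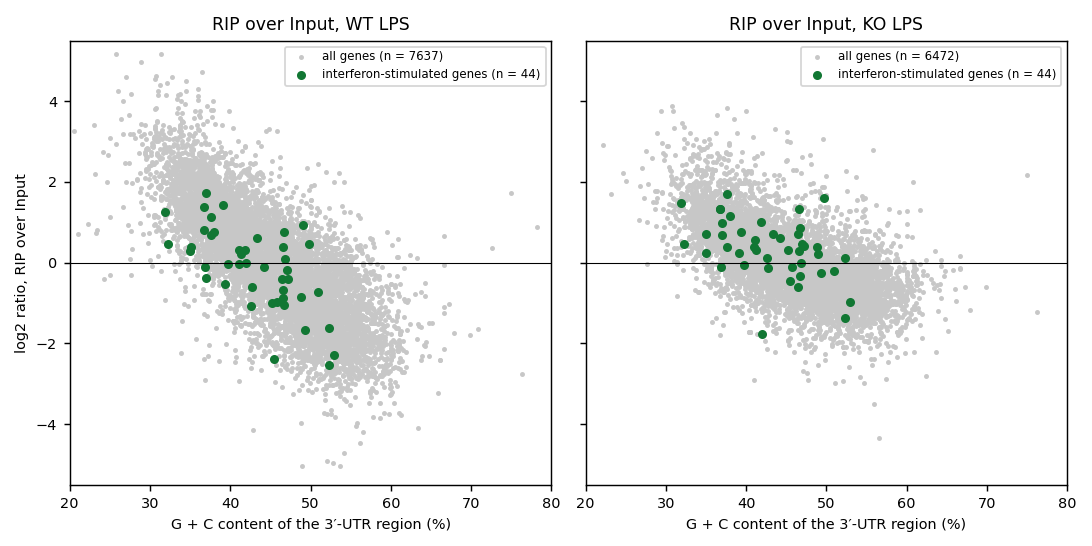
G + C content of the 3′-UTR region in percent (horizontal axis) and log2 ratio of RIP over Input with LPS (vertical axis) in WT (left) and KO (right), 1 point per gene, with the 44 ISGs in green and all genes with at least 20 reads in grey. Both clouds go down with G + C content, with rho over all genes of -0.77 in WT and -0.65 in KO, and the ISGs lie within them.

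Several ISGs lie beside each other, and some share sequence. With a gap of at most 200000 bases, 18 of the 44 formed 7 groups of neighbours, namely Rsad2 and Cmpk2 on chromosome 12, Parp14, Dtx3l and Parp9 as well as Mx1 and Mx2 on chromosome 16, Ifit2, Ifit3 and Ifit1 on chromosome 19, the 4 GBP genes on chromosome 3, and Oasl2 with Oasl1 and Oas2 with Oas3 on chromosome 5. Neighbours had like LPS ratios in some groups, such as 3.60 and 3.77 for Ifit2 and Ifit1 in WT, and unlike ones in others, such as 1.18 for Ifit3 beside them. Because the reads of paralogs may be shared, each 3′-UTR region was aligned to the annotated transcripts of all genes. A match of at least 90% identity over 100 bases or more to another gene of the same family was found for Ifit3, as given above, and for Trim30a, of which 145 of 2052 bases matched Trim30d at 91.7%. In Dtx3l, Oas3, Trim21 and Xaf1 a stretch of at least 100 bases matched genes elsewhere at 95% or more. No region of a GBP, Oas or Mx gene matched its own family in this way, while Gbp7 overlaps the pseudogene Gm43802 by 637 bases. Without the 19 genes of multigene families, 22 of 25 ISGs were at least 2-fold higher with LPS in WT, beside 15% of all genes. In the WT over KO RIP ratio with LPS 5 of 25 were 2-fold lower, beside 13.8% of all genes, and in so short a list these shares are not far apart.

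The list of the interferon pathway itself holds receptors, sensors, adaptors, kinases, transcription factors and an inhibitor. Of its 24 genes in the data, 23 had enough reads in WT, and 7 were at least 2-fold higher and 3 lower with LPS, beside 15% and 15.3% of all genes, with a median of 0.78. In KO 8 were higher and 2 lower, beside 13.7% and 19.6% of all genes, with a median of 0.76. Socs1, the inhibitor of JAK kinases, had 2 and 280 reads in the WT Inputs and 3 and 229 in the KO Inputs, ratios of 5.52 (3.88 to 7.16) and 5.67 (4.24 to 7.09). Ifngr1, a receptor chain for interferon-γ, had ratios of -1.37 (-1.91 to -0.83) in WT and -1.11 (-1.59 to -0.62) in KO. In the WT over KO RIP comparison with LPS, 4 of 22 pathway genes were at least 2-fold higher and 2 lower, beside 10.2% and 13.8% of all genes, and the median was 0.05. Of a longer list of 75 further ISGs in the data, 61 had enough reads in WT. Of these 56 were at least 2-fold higher with LPS and none lower, beside 15% and 15.3% of all genes, with a median of 1.97. In KO 49 of 58 were higher and 1 lower, beside 13.7% and 19.6% of all genes, with a median of 1.98. Genes such as Cxcl9 (0 and 169 reads in the WT Inputs) and Slfn1 (2 and 207) reached the read minimum only through the LPS library. This partly set the counts in advance, and no minimum on untreated reads was applied to this list. With LPS 18 of 65 genes of the list were at least 2-fold lower in the WT RIP than in the KO RIP and 1 was higher. This is on the 3′-UTR scaling, beside 13.8% and 10.2% of all genes, and the median was -0.72.

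The libraries held 467696 (KO RIP, untreated) to 2492300 (WT RIP, LPS) 3′-UTR reads, and the 2 KO RIPs were the shallowest. Over the 3′-UTR of Cpeb4, the level in the Inputs was 130.2 CPM and 136 CPM in WT and 52.0 CPM and 52.6 CPM in KO. In the RIPs it was 836 CPM and 770.4 CPM in WT and 257 CPM and 367 CPM in KO. The level over this 3′-UTR was thus higher in the RIP than in the Input in KO as well as in WT, and the reason was not tested. The deleted part of the gene is not given in the sources used here, so these reads do not check the deletion. The 10 macrophage markers in the data summed to 2751 to 3768 CPM over the 4 Inputs. Of the markers listed for other cells, the data held 2 of 9 for neutrophils, 6 of 7 for dendritic cells and 2 of 4 for plasmacytoid dendritic cells. They held 3 of 5 for B cells, 5 of 8 for T and NK cells and 3 of 5 for fibroblasts. Those in the data summed to at most 12.8 CPM per cell type in any Input, and Ms4a1, Cd3e, Cd3d, Dcn, Pdgfra and S100a8 had 0 reads in all 4. Markers missing from the data could not add to these sums, so the low sums do not show that these cells were absent.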

How the data were processed

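Reads over 3′-UTRs were analysed in 8 RIP-seq libraries of WT and CPEB4 KO BMDMs, 1 per genotype, treatment and assay. Per the study's methods, the authors aligned the reads to mm10 with Bowtie2 2.2.2 in local mode, removed duplicates with sambamba, counted over Ensembl 3′-UTRs and called peaks with MACS 1.4.2. The deposited counts are whole numbers of reads per region and library, with the lanes of a library summed, and the 8 count columns are repeated in the 4 tables. The RPKM values that the authors deposited served only to recover their library totals, and the deposited region lengths (in bases) and CPE predictions were used as listed. The authors' columns of p-values, adjusted p-values, log2 fold changes, peaks and scores hold their own comparisons and were not used. The strand setting of the counting is not given in the sources used here.

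The 44 genes and the other lists were chosen with earlier results of these data known. Of 31117 regions, 495 carried no symbol (0.902% to 1.04% of the reads of a library) and were left out. Of the 44 genes, 19 had 1 region and 25 had several, and the region with the most reads was taken. Isoform regions that overlap count a read more than once. Ratios, calls and intervals were computed as given above with Python 3.11.15, and pairs of libraries with at most 3 reads each got no ratio. Intervals and floors cover counting error only, and PCR reads are not independent molecules. The genes described with their values in every library were, per role group, the 3 with the most reads, the 3 largest and 3 smallest by LPS ratio in WT, up to 6 whose LPS ratio differed between genotypes beyond counting error, and the 3 largest and 3 smallest by input-corrected ratio per treatment. The calculation was tested on simulated data. Alternatives were the authors' library totals, TMM factors (edgeR 4.0.16), median-of-ratios size factors, 0.1 reads added, no read minimum or 50 reads, the longest region, the list without multigene families, and thresholds of 1.5-fold and 3-fold. Motifs and base composition were read from GRCm38.p6 and regions were aligned to annotated transcripts with BLAST 2.17.0.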

Additional observations from a re-analysis of the deposited data

Results flagged for a closer look

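Irf8, a transcription factor of the macrophage lineage in the interferon pathway list, was noted because its Input level moved with LPS in opposite directions in the genotypes. It had 215 and 308 reads in the WT Inputs (231 CPM and 162 CPM) and 265 and 511 in the KO Inputs (199.9 CPM and 340.1 CPM). The LPS ratios were -0.51 (-0.76 to -0.26) in WT and 0.76 (0.55 to 0.98) in KO, a difference of 1.28 (KO minus WT), and with 1 library per group the difference was not tested against replicates.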

How the results depend on the processing

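Over the 19 counts and medians of the ISGs, 164 alternative values were computed, of which 127 kept their sign and stayed close to the value reported. All 19 did so with 0.1 reads added. Of 104 alternative medians 13 changed sign, 7 of them on the authors' library totals, namely that of RIP over Input in KO, to -0.54 without LPS and -0.30 with LPS, that of WT over KO RIP, to 0.27 and 0.58, the input-corrected ones, to 0.47 and 0.69, and that of RIP over Input in WT with LPS, to 0.49. With these totals the counts of ISGs 2-fold higher in WT over KO RIP became 4 and 11 and those 2-fold lower 0 and 0. The other sign changes were of medians near 0, that of RIP over Input in WT with LPS, -0.02, to 0.28 with TMM factors, 0.15 with median-of-ratios factors and 0.00 without multigene families, that of RIP over Input in WT without LPS, 0.03, to -0.14 with the longest region and -0.16 with at least 50 reads, and that of KO over WT Input with LPS, 0.01, to -0.08 without multigene families. With TMM factors the median of RIP over Input in KO without LPS became 0.10, that of WT over KO RIP with LPS -0.22 and the input-corrected one with LPS -0.15, with 1 and 2 ISGs higher and 5 lower with LPS. Median-of-ratios factors gave 1 ISG higher without LPS and 5 lower with LPS. Each of these scalings moves all genes by the same amount, so the signs and counts depend on the scaling chosen. Which scaling is nearest to the true recovery was not tested. With no read minimum 1 ISG was higher without LPS. Without multigene families 22 ISGs were higher with LPS in the WT Input and 20 in the KO Input, and 1 and 5 were lower in WT over KO RIP, in a shorter list. At 1.5-fold 2 and 2 ISGs were higher in WT over KO RIP and 12 and 21 lower, and at 3-fold 0 were higher with LPS and 1 and 1 lower. No paired analysis was possible because each group holds 1 library. With 23 of 44 ISGs under 10 reads in the untreated WT Input, the size of their LPS ratios is limited by depth.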

Other observations

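Cxcl11, a chemokine that attracts T cells through CXCR3, stood apart among the 75 further ISGs and was chosen here after its values were seen. It had 0 reads in both untreated Inputs, 116 in the WT Input with LPS and 10 in the KO Input with LPS, a KO over WT ratio of -3.07 (-3.97 to -2.18). With LPS it had 474 reads in the WT RIP and 13 in the KO RIP, a WT over KO ratio of 3.57 (2.80 to 4.34), and the input-corrected ratio was 0.49 (-0.68 to 1.67), whose interval holds 0. Tlr4, the LPS receptor, had 13 and 11 reads in the WT Inputs and 22 and 3 in the KO Inputs. Its LPS ratios were -1.25 (-2.36 to -0.14) in WT and -2.70 (-4.24 to -1.17) in KO, the latter on 3 reads with LPS. In the WT RIPs it had 129 and 57 reads (77.4 CPM and 22.9 CPM). In the KO RIPs it had 24 and 6 reads (51.3 CPM and 6.88 CPM). With LPS its WT over KO RIP ratio was 1.53 (0.40 to 2.67). The input-corrected ratio with LPS was 0.29 (-1.70 to 2.27), whose interval holds 0.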
